A study of Caenorhabditis elegans with 8 samples.

Results

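MiR-257 was followed across all arrays of a spaceflight experiment on the nematode Caenorhabditis elegans, as 1 probe of the 156 that carry a C. elegans name in the deposited file. The probe was selected on its measured intensities, which earlier results of the same data showed to be high on every array and low on the 1g centrifuge arrays, so its levels by condition are given as a description. It had 4 spots on each of 8 arrays, 32 spots in all, under the name cel-miR-257 with no arm given. Each array measured total RNA (1 µg, labelled with the dye Hy3) from whole worms of 1 strain in 1 condition. The strains were N2, the Bristol wild type, and LS292, which carries the allele dys-1(cx18) on chromosome I. The static flight group was flown on Shenzhou-8 for 16.5 days at 23 °C in the BIOBOX hardware under space radiation (1.92 mGy) and microgravity. The 1g flight group flew beside it on a centrifuge, with radiation (2.27 mGy) and without weightlessness. The ground control spent 16.5 days at 23 °C in a static slot of the same kind of hardware in Beijing, and was begun 2 days later. Flight and ground worms were loaded as dauer larvae. A collection time of 7 h is given for them in addition to the 16.5 days. The stage they had reached at collection is not given in the sources used here. The no-transport control stayed in an incubator at a university and never went to the launch site, so it differs from the ground control in hardware and place as well. Every group was a single array of worms with no repeat of the sample, and the dys-1 mutant was represented by 1 strain with 1 allele.

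MicroRNAs are short RNAs that are cut from a hairpin precursor, load into an Argonaute protein and lower the output of messenger RNAs with which they pair, mainly through the seed near their 5′ end. The C. elegans dauer larva is a long-lived, stress-resistant stage, and several microRNAs of the let-7 and lin-4 families time the passage between larval stages. Dys-1 encodes the worm dystrophin, a protein that links the muscle cell's interior to its membrane complex, and its message is not measured by this array. The sources used here give miR-257 no function.

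The gene, mir-257, is annotated on chromosome V of the RefSeq assembly WBcel235, and no other gene in that annotation overlaps it. The files name no genome build, so only the order of genes is given here. The next gene before it is the non-coding RNA gene Y102A5D.22, followed at once by sls-1.1, the near end of a tandem run of genes for 5S ribosomal RNA (rrn-4) and for the spliced leader RNA SL1 (sls-1), which is joined to the 5′ end of many worm messages. Of the 30 genes before mir-257, 14 were rrn-4 copies and 12 were sls-1 copies, out of 16 and 12 named so in the whole assembly. On the other side lies the pseudogene F40D4.14. Between mir-257 and the nearest microRNA genes on the chromosome, mir-8197 before it and mir-5552 after it, lie 924 and 318 genes. No other microRNA gene thus adjoins mir-257.

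Few C. elegans probes were bright on these arrays. Between 11 and 19 of 156 reached a spot median of 50 above local background per array, and 5 did so on all 8 arrays. Abundant worm microRNAs stayed below it: the highest spot median on any array was 11.5 for the muscle microRNA miR-1, 18.5 for the larval timing microRNA lin-4, 26.5 for miR-58 and 12.5 for miR-71. A further 158 of 2145 probes without a name reached 50 on all 8 arrays. No spike control had an array median above 29, whereas the Hy3 control had array medians of 509 to 1222. The share of spots reading under -50 was 23.7% on the array of N2 in static flight and 3.30% to 10.7% on the others. The arrays gave 1 value per strain and condition, and their number limits the precision of everything below.

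In N2, the miR-257 spot median was 505 in static flight, 248.5 in 1g flight, 331.5 in the ground control and 662.5 in the no-transport control. In LS292 it was 443 in static flight, 294 in 1g flight, 603 in the ground control and 333 in the no-transport control. The 1g array was thus the lowest in each strain, and both 1g arrays were below all 6 other arrays. The highest array differed between the strains, being the no-transport control in N2 and the ground control in LS292. Whole worms were extracted, so fewer cells that make miR-257 and less miR-257 per cell cannot be told apart.

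The order of the levels was not separated by the spread of the spots. In N2 it ran from 1g flight through ground control and static flight to the no-transport control, with steps of 83, 173.5 and 157.5. In LS292 it ran from 1g flight through the no-transport control and static flight to the ground control, with steps of 39, 110 and 160. Each of these 6 steps was smaller than the larger spot SD of its 2 arrays, which ran from 263 to 701. The ranges of the 4 spots overlapped at all 6 steps. These spots are repeats of 1 hybridisation, not separate worms.

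The single spots behind those medians differed widely. On the N2 1g array the 4 spots read 343, 278, 219 and 158, in order of their position from the first to the last of the 4 sets of 12 blocks on the array. On the LS292 1g array they read 163, 184, 512 and 404. The highest 1g spot was 512, whereas the highest spot of each other array lay between 540 and 1584.

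On the N2 ground array the 4 spots were 210, 453, 20 and 1584, and on the LS292 ground array 603, 431, 603 and 1046. The N2 ground median of 331.5 therefore lies between the 1 spot under 50 and the brightest miR-257 spot of the experiment. That array had an SD of 701 among its spots, 211% of the median, against a median of 34.5% over the 163 bright probes on the same array.

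In static flight the spots were 213, 540, 532 and 478 in N2 and 491, 226, 395 and 745 in LS292. Without transport they were 430, 176, 1474 and 895 in N2 and 330, 183, 336 and 1374 in LS292. The fourth position gave the highest spot on 4 of 8 arrays and the second position the lowest on 4 of 8. Over the 163 bright probes the fourth position lay at 0.999 to 1.51 times the probe median, depending on the array, and the first at 0.402 to 0.900 times. The part of this position difference in the miR-257 values was not tested.

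**Figure D1:**
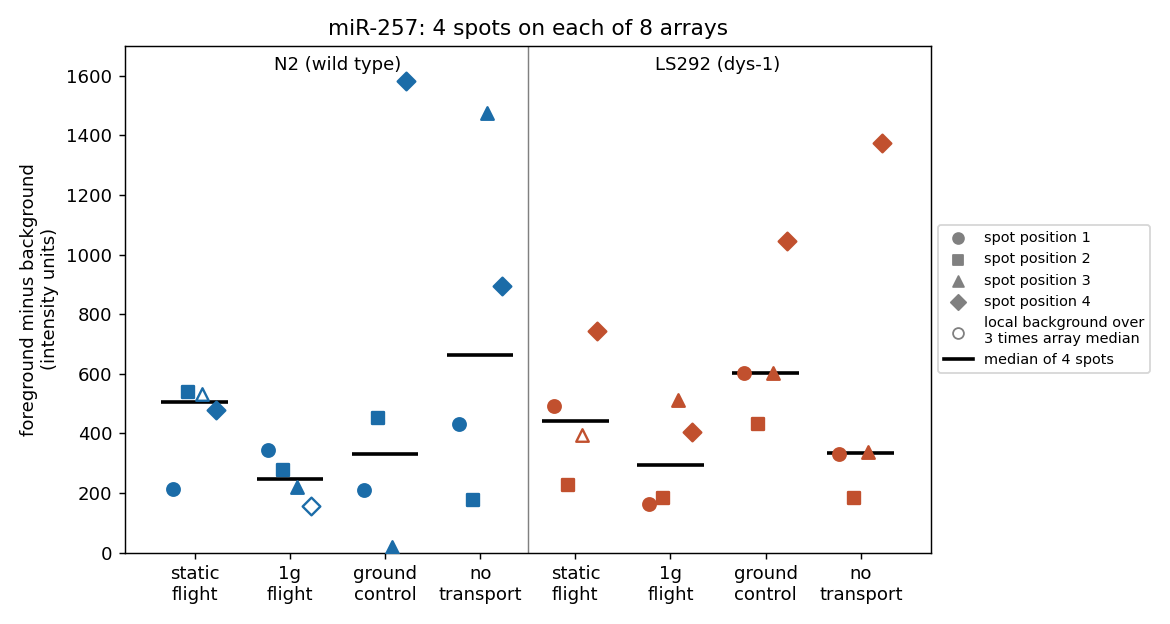
Foreground minus local background (intensity units) of the 4 miR-257 spots on each of 8 arrays, with marker shape for the spot's position, a bar for their median and hollow markers for spots whose local background was over 3 times the array median. The 1g arrays lie between 158 and 512, within the range of the spots on the other arrays, which reach 1584.

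Local background differed around these spots. Of the 32 spots, 3 lay on a local background over 3 times that of their array: the third position of N2 static flight (501 against an array median of 65), the fourth of N2 1g flight (263 against 51) and the third of LS292 static flight (369 against 54). Around the fourth N2 1g spot, 7 of 8 adjacent spots read below -50, down to -187. That spot was the lowest of its array after subtraction, at 158, but the highest in foreground, at 421. Without any background subtraction the medians in N2 were 571 in static flight, 357 in 1g flight, 402.5 in the ground control and 717.5 without transport. In LS292 they were 655, 361, 695.5 and 379 in the same order. On the foreground scale the 1g array was again the lowest of each strain, next to the ground control in N2 and to the no-transport control in LS292. Once foreground levels were scaled to the other bright C. elegans probes, N2 1g flight lay above the N2 ground control by log2 0.30.

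Compared position by position with the ground control, 1g flight was lower at 4 of 4 positions in LS292 but at 2 of 4 in N2. Against static flight it was lower at 3 of 4 positions in each strain. Against the no-transport control it was lower at 3 of 4 positions in N2 and 2 of 4 in LS292. After background subtraction, LS292 static flight was also lower than the ground control at 4 of 4 positions. Spots that all ran one way against that array were thus not particular to 1g flight on that scale. In foreground, LS292 static flight was lower than the ground control at 3 of 4 positions and 1g flight at 4 of 4. In foreground, LS292 1g flight was lower than static flight at 4 of 4 positions too.

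Brightness between arrays was next allowed for by giving each miR-257 level relative to the geometric mean of the other C. elegans probes that reached 50 on all 8 arrays. These were let-7 and miR-84 of the let-7 family, miR-55 of the miR-51 family and miR-1823. Different probes bind with different strength, so only the change of this ratio between arrays is read. In N2 miR-257 was 3.02 times that mean in static flight, 1.13 times in 1g flight, 1.43 times in the ground control and 5.63 times without transport. In LS292 it was 1.83 times in static flight, 0.977 times in 1g flight, 3.27 times in the ground control and 2.45 times without transport. Both 1g arrays were again the lowest, and the N2 no-transport array the highest.

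On this scale 1g flight differed from the ground control by log2 -0.34 in N2 and -1.75 in LS292. It differed from static flight by log2 -1.42 in N2 and -0.90 in LS292. The spread of single miR-257 spots was taken as SD over median, combined over both arrays and put in log2 units. It came to 3.09 in N2 and 1.05 in LS292 for the ground comparison. For the static comparison it came to 0.64 in N2 and 1.09 in LS292. It is not the error of the medians, and it leaves out the spread of the scaling probes. Where the SD exceeds the median, as on the N2 ground array, it is only a rough figure. That spread is technical, from within single hybridisations, and says nothing of the spread between worm samples. These contrasts chose the probe, so they carry no test.

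The scaling probes themselves read differently on the 1g arrays. Let-7 was at 479 and 655 in 1g flight in N2 and LS292, and both values were the highest of their strain. Its other arrays read 343, 367 and 128 in N2 and 548.5, 413.5 and 338 in LS292, for static flight, ground and no transport. MiR-55 was likewise highest in 1g flight in each strain, at 355.5 in N2 and 256 in LS292.

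MiR-84 was at 76.5 and 80 in 1g flight in N2 and LS292, against 94.5 and 201.5 in static flight, 190.5 and 197.5 on the ground and 62 and 59.5 without transport. In each strain its lowest unscaled level was in the no-transport control and not in 1g flight. MiR-1823 was at 180.5 in N2 1g flight and at 612 in LS292 1g flight. Its other arrays read 118, 234.5 and 87.5 in N2 and 173, 80 and 96.5 in LS292. Of the 5 bright C. elegans probes, miR-257 was thus the 1 whose unscaled level was lowest in 1g flight in each strain, which is the pattern it was chosen for. With scaling to the 4 probes other than miR-257, 2 of the 5 were lowest there in each strain, miR-257 and miR-84. MiR-84 is itself part of that scale.

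**Figure D2:**
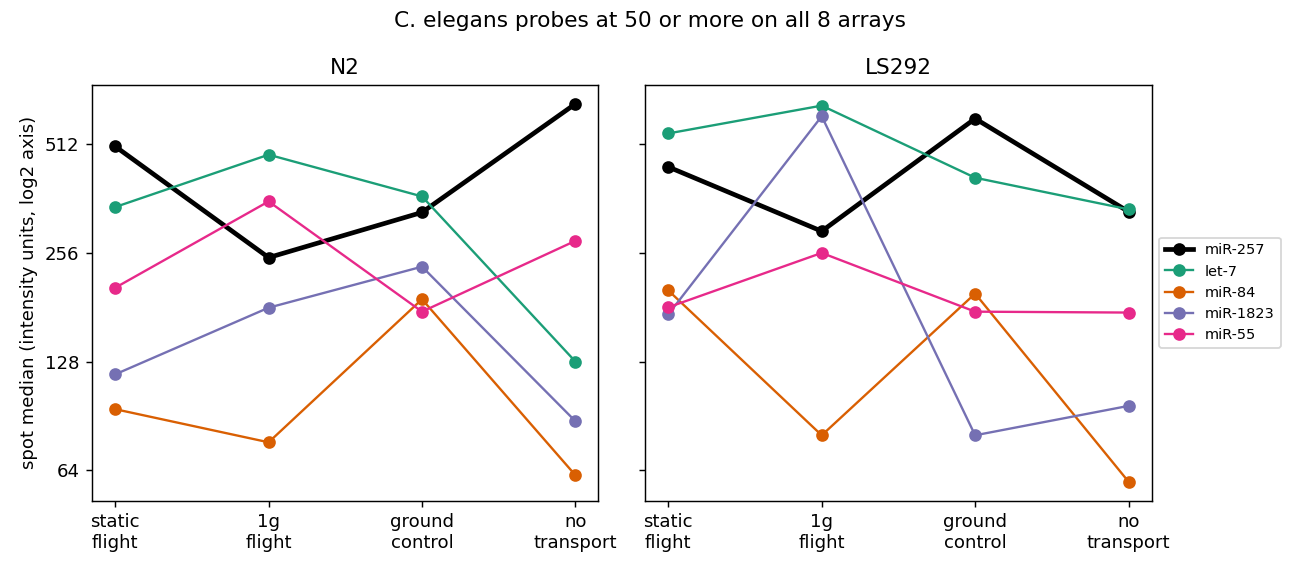
Spot medians (intensity units, log2 axis) of the 5 C. elegans probes that reached 50 on all 8 arrays, by condition in N2 and LS292, with lines that join the points of a probe for the eye only. MiR-257 is lowest on the 1g arrays (248.5 and 294), where let-7 (479 and 655) and miR-55 (355.5 and 256) are highest.

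The authors' normalized values divide each array by 1 constant, which equalled the median of these 5 probes on all 8 arrays. The probe that sat at this median changed from array to array. It was miR-257 itself on both 1g arrays, let-7 on N2 no transport, miR-1823 on N2 ground, miR-84 on LS292 static flight and LS292 ground, and miR-55 on N2 static flight and LS292 no transport. MiR-257 therefore has a normalized value of exactly 1 in both 1g groups. The authors' deposited table accordingly gives LS292 over N2 in 1g flight as a fold change of 1, although the intensities were 294 and 248.5. In the authors' deposited table the ground control over 1g flight is 1.41 in N2 and 3.05 in LS292, and 1g flight over static flight is 0.406 in N2.

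The 158 bright unnamed probes gave a second reference, from many more probes whose targets are not known here. Their median was 480 on the N2 ground array and 335 on the N2 1g array, and 487 and 344 in LS292 static and 1g flight. Relative to that median, miR-257 in N2 was 1.84 times in static flight, 0.742 times in 1g flight, 0.690 times in the ground control and 2.62 times without transport. In LS292 it was 0.910 times in static flight, 0.855 times in 1g flight, 1.54 times in the ground control and 1.44 times without transport. Relative to the unnamed probes the lowest N2 array was the ground control and not 1g flight, with a log2 difference of 0.10 for 1g flight against ground. In LS292, 1g flight against static flight came to -0.09 on the same scale, and 1g flight against ground to -0.84.

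**Figure D3:**
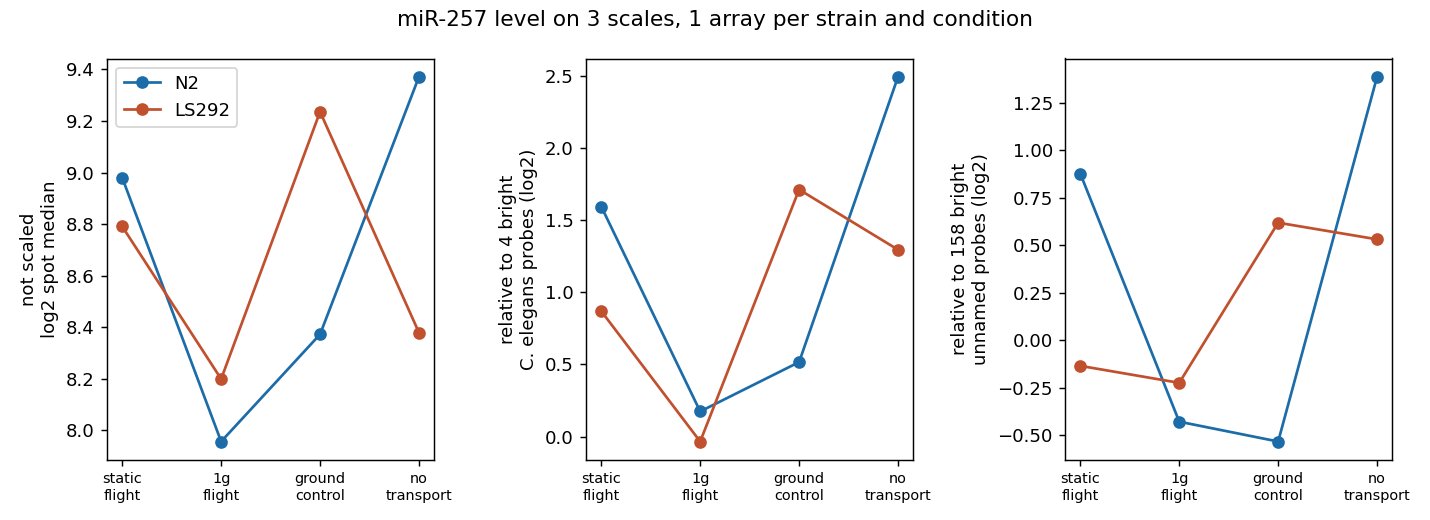
MiR-257 on each array without scaling, relative to the 4 other bright C. elegans probes and relative to the 158 bright unnamed probes (all log2), by condition, with 1 point per strain and condition and lines for the eye only. The 1g array is the lowest of its strain on the first scales shown, but on the last one the N2 ground control (-0.53) lies below N2 1g flight (-0.43).

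Across the 163 bright probes, named and unnamed, 5 (3.07%) had their lowest unscaled level in 1g flight in each strain, miR-257 among them. With scaling to the other bright C. elegans probes the count was 49 (30.1%), miR-257 among them. With scaling to the unnamed probes it was 11 (6.75%), and miR-257 was not one of them. Since the pattern chose the probe, nothing is read from these shares.

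For single contrasts the place of miR-257 among the 163 varied. For N2 1g flight against static flight its log2 ratio was -1.02, with 8 probes lower, and the median of all was 0.06. For N2 1g flight against no transport it was -1.41, with 12 probes lower and a median of 0.22. For LS292 1g flight against ground it was -1.04, with 20 probes lower and a median of -0.17. For N2 1g flight against ground, in contrast, it was -0.42, which lay above the median of -0.63, and 92 probes were lower. For LS292 1g flight against static flight it was -0.59, with 60 probes lower and a median of -0.35.

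**Figure D4:**
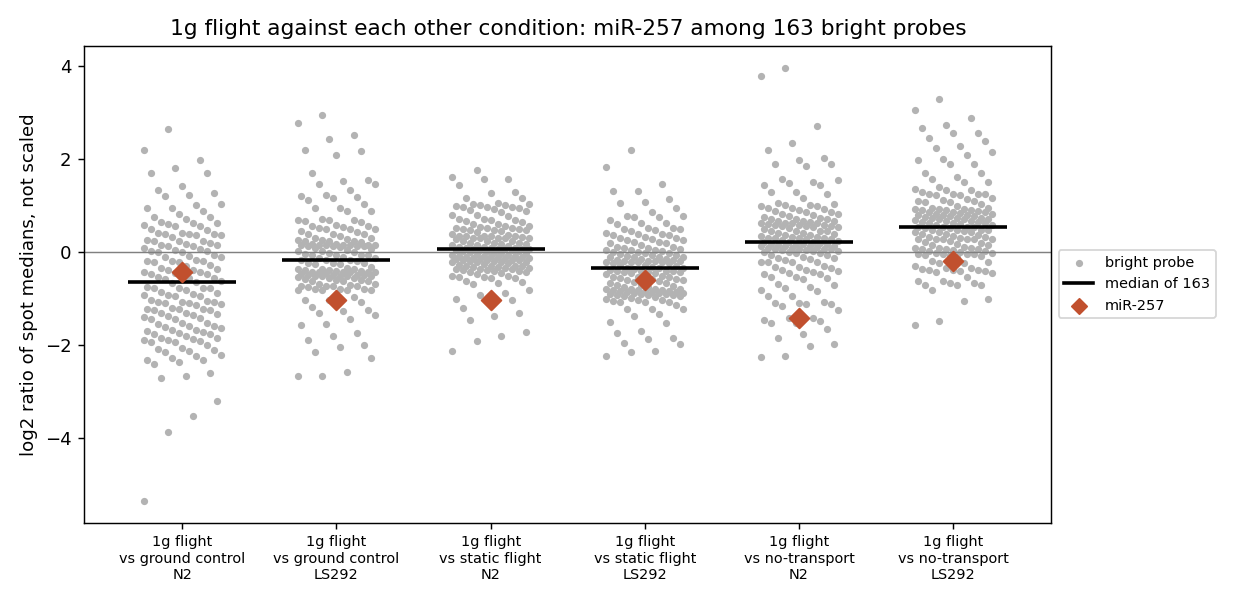
Log2 ratio of unscaled spot medians of 1g flight over each other condition for the 163 bright probes (grey points), their median (bar) and miR-257 (diamond), with 1 column per contrast and strain. MiR-257 lies low in the cloud for N2 against static flight (-1.02) and above the median for N2 against ground (-0.42 against -0.63).

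Contrasts that did not choose the probe were tested, though they share arrays with those that did. Limma was fitted with strain and condition over the 8 arrays to the 20 C. elegans probes that reached 50 on 2 or more arrays, with levels scaled to the 4 bright C. elegans probes. LS292 against N2 over the 4 conditions gave a log2 difference of -0.23 (SE 0.41, 95% interval -1.24 to 0.77, limma adjusted p 0.741). MiR-257 was lower in LS292 in 3 of 4 conditions, with differences of -0.72 in static flight, -0.21 in 1g flight and -1.20 without transport, and 1.19 in the ground control. An exact sign-flip permutation test over those 4 differences gave a two-sided p of 0.625, where the smallest this design allows is 0.125. Limma called 0% of the 20 probes for this comparison, and 1 had an unadjusted p under 0.05.

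Static flight differed from the ground control by log2 0.12 (SE 0.59, 95% interval -1.30 to 1.54, limma adjusted p 1). The strains ran in opposite directions here, with 1.08 in N2 and -0.84 in LS292. Limma called 0% of the 20 probes, and 1 had an unadjusted p under 0.05. The ground control differed from the no-transport control by log2 -0.78 (SE 0.59, 95% interval -2.20 to 0.64, limma adjusted p 0.418). N2 was at -1.98 and LS292 at 0.42, again in opposite directions. Limma called 10% of the 20 probes in this comparison, and 7 had an unadjusted p under 0.05. MiR-257 was in neither set. The intervals all include changes of more than 1 log2 unit in at least 1 direction, so a missed threshold does not show equal levels.

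Among the other 15 C. elegans probes that reached 50 on 2 or more arrays but not on all, the pattern over the 8 arrays most like that of miR-257 by Pearson correlation of log2 spot medians, floored at 50 and not scaled, was that of miR-230, at 0.64. Its spot medians in N2 were 199 in static flight, 94.5 in 1g flight, 170.5 on the ground and 209 without transport. In LS292 they were 88.5, 44.5, 137.5 and 51.5 in the same order. MiR-230 shared with miR-257 the lowest level in 1g flight in each strain, the highest N2 level without transport and the highest LS292 level on the ground. Its LS292 1g median of 44.5 was under 50, however, and close to the 51.5 without transport.

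The correlation of miR-230 with miR-257 was 0.62 by Spearman's rho, 0.71 with each array centred on the bright unnamed probes, and 0.48 over the 6 arrays left without N2 no transport and LS292 ground, the arrays farthest from the miR-257 median. MiR-787 and miR-795, a member of the let-7 family, followed with correlations of 0.41 and 0.39. MiR-787 was under 50 on 3 of 8 arrays and miR-795 on 6 of 8. The lowest miR-795 median was also in 1g flight in each strain, at 10 in N2 and 9 in LS292. Every LS292 median of miR-795 was under 50, however, with 15.5 in static flight, 17 on the ground and 10.5 without transport. Over the same 6 arrays as above the correlations of miR-787 and miR-795 were 0.08 and 0.69, and after centring 0.64 and 0.73. Among those 6 arrays miR-795 reached 50 only on N2 static flight, at 85.5, so its 0.69 rests on that array. Both over the 6 arrays and after centring, miR-795 was above miR-230. After centring so was miR-1824, at 0.72, named after its value was seen. MiR-1824 was under 50 on 5 of 8 arrays, and its correlation was 0.36 before centring and -0.43 over the 6 arrays. Centring takes the same value per array from both probes, so values held at the floor can correlate through that value alone. MiR-230 thus led for the unscaled values over all 8 arrays, by Pearson and by Spearman correlation, but not after centring or over the 6 arrays. The opposite pattern was strongest for miR-255, at -0.79, but it was under 50 on 4 of 8 arrays and its correlation became 0.27 after centring.

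Among the scaling probes the correlation with miR-257 was 0.20 for miR-84, -0.31 for miR-55, -0.61 for let-7 and -0.66 for miR-1823. Over the 158 unnamed probes it ranged from -0.76 to 0.85, with a median of -0.02. These correlations are descriptions over 8 arrays that share the brightness of each array, and probes were ranked by them, so they carry no p.

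The probe printed beside miR-257, in the next column of each of its 4 positions, was singled out after its values were seen. It has the identifier 49078 and no name. Its spot medians in N2 were 74.5 in static flight, 55.5 in 1g flight, 23.5 on the ground and 100 without transport, and in LS292 233, 71.5, 180.5 and 37. Over the 32 pairs of adjacent spots its reading was a median of 0.214 times that of miR-257, with a Spearman correlation of 0.73. Over the 8 arrays the Spearman correlation of the medians was 0.64. With all arrays pooled, brighter miR-257 spots thus tended to lie beside brighter spots of the neighbouring probe. That probe was not lowest in 1g flight, however. Its lowest median was on the ground in N2 and without transport in LS292. Whether the 2 probes bind the same RNA or one spot's light reaches the other was not tested.

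**Figure D5:**
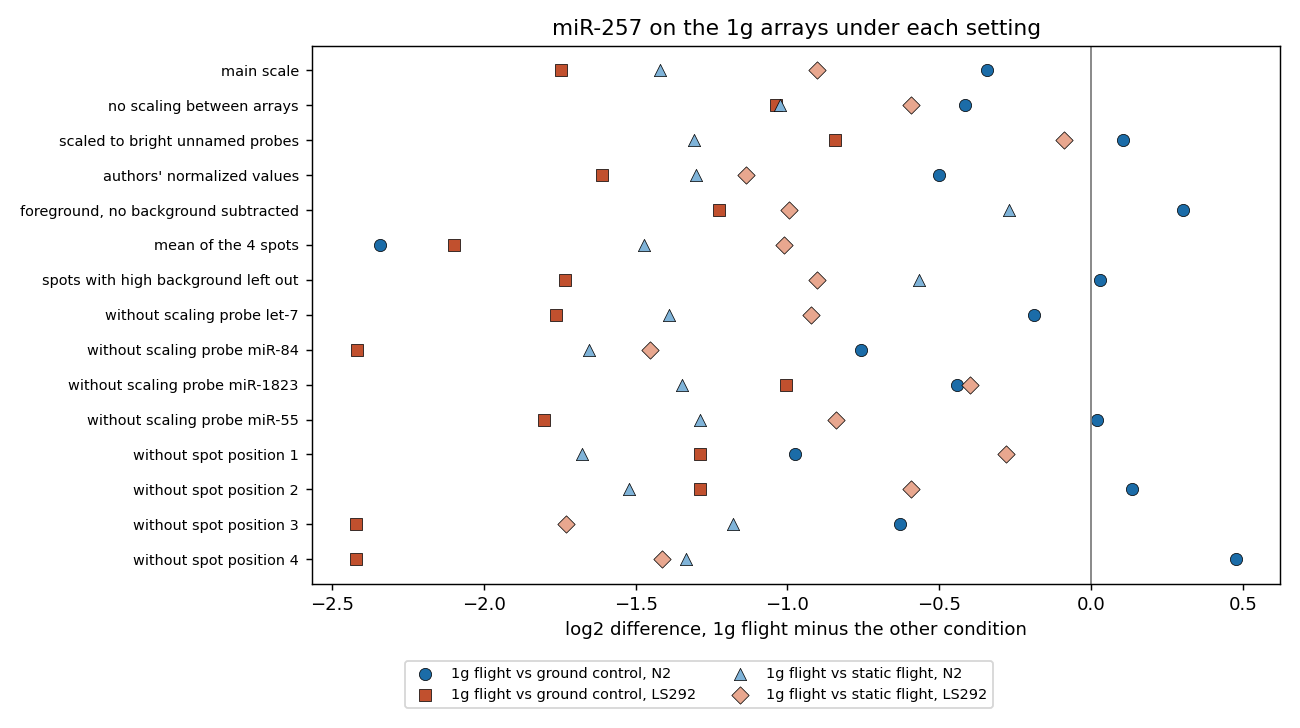
Log2 difference of miR-257 between 1g flight and the ground control or static flight in each strain, under the main scale and 14 alternatives, 1 row per setting. All LS292 points and all N2 points against static flight lie below 0, while N2 against ground lies on both sides of 0, from -2.34 to 0.48.

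Under the 14 alternatives, 1g flight had the lowest relative miR-257 level of the strain in all 14 for LS292 and in 8 for N2. The settings reuse the same spots and the pattern chose the probe, so these counts are a description. With scaling to the other bright C. elegans probes, 30.1% of the 163 bright probes were lowest in 1g flight in each strain. Against ground, LS292 ranged from -2.42 to -0.84 and N2 from -2.34 to 0.48. The N2 value of -2.34 came with the mean of spots, where a negative let-7 mean on the N2 ground array was raised to 50 before scaling, and without that setting N2 ranged from -0.97 to 0.48. Against static flight, N2 ranged from -1.68 to -0.27 and LS292 from -1.73 to -0.09.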

How the data were processed

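Total RNA from 8 worm samples was hybridised to 1-colour arrays, per the labels' protocols. Neither scanner nor image software is named in these sources. For each of 10080 spots the authors deposited, per the file headers, an intensity of the foreground and an intensity after local background was taken off. The authors' table per probe equalled the median of its spots for 2314 of 2314 probes within 1e-06. Normalized values from the authors give the ratio of an intensity to 1 constant per array (128 to 294), and their fold changes are ratios of those. The series matrix equalled the normalized values for 2313 of 2313 probes within 1e-06.

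The miR-257 level was the median of 4 spots of foreground minus background. For tests, spot medians of 20 probes (50 or more on 2 or more arrays) were scaled to the geometric mean of the 4 other probes bright on all arrays, floored at 50 and fitted on the log2 scale with limma 3.58.1 in R 4.3.3, with strain and condition as additive terms (3 residual degrees of freedom), Benjamini-Hochberg adjustment over the 20 and a threshold of 0.05. The residual is the strain-by-condition interaction. The fit was tested on simulated data with a change between strains larger than any fitted for miR-257. Its power for changes of the fitted size was not examined. P-values measure only the spread between these arrays. Python 3.11.15 gave the other values.

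The member and the lists were chosen with earlier results of these data known. Named microRNAs were miR-257, the other probes bright on all arrays, and, of the rest of the 20, the 3 with the highest and the 1 with the lowest correlation with miR-257. MiR-71, miR-58, miR-1824, lin-4, miR-1 and the adjacent unnamed probe lie outside this rule and were named with their values known. Alternatives covered scaling, background, the summary of spots, the filter and arrays, spots or scaling probes left out. Leaving out spot positions was added after seeing the data. No sequence is shown for the probe.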

Additional observations from a re-analysis of the deposited data

Results flagged for a closer look

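In 2 contrasts the miR-257 level, relative to the 4 other bright C. elegans probes, moved in opposite directions in the strains. Static flight against ground control was log2 1.08 in N2 and -0.84 in LS292. Ground control against no-transport control was log2 -1.98 in N2 and 0.42 in LS292. Each value rests on 1 array per side, and the difference between the strains was not tested. Both contrasts use the N2 ground array, whose 4 spots ran from 20 to 1584. Relative to the bright unnamed probes the values were 1.41 and -0.75 for the first contrast, and -1.92 and 0.09 for the second.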

How the results depend on the processing

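No test of miR-257 passed the threshold on the main scale or under any of 15 alternatives, with adjusted p from 0.327 to 0.974 for strain, 0.383 to 1 for static flight against ground and 0.0521 to 1 for ground against no transport. Direction was less stable. LS292 against N2 ranged from -0.71 to 0.087 when arrays were left out (0.087 without either no-transport array) and was 0.012 with foreground alone. Static flight against ground ranged from -0.84 (without N2 ground) to 1.07 (without LS292 ground), was -0.21 without N2 static flight and -0.98 with the mean of spots, where the negative let-7 mean on the N2 ground array was raised to 50 before scaling. Ground against no transport ranged from -1.73 (without LS292 ground) to 0.17 (without N2 ground). Ground against no transport was -0.0016 with the mean of spots. After normexp and quantile normalization it and static flight against ground were both exactly 0. Quantile normalization gives probes of the same rank the same value on every array. A 0 under that setting can therefore come from rank alone and does not show an unchanged level. An array left out leaves 1 array in its condition, which is assumed to vary like the others.

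Without a test, N2 1g flight against ground turned from -0.34 to 0.10 when scaled to unnamed probes, 0.30 with foreground alone, 0.029 without spots of high background, 0.021 without miR-55 as scaling probe, and 0.13 and 0.48 without spot position 2 or 4. N2 1g flight against static flight went from -1.42 to -0.27 with foreground alone and to -0.57 without spots of high background. The causes were not tested. The LS292 contrasts kept their direction in all 14 alternatives each, but LS292 1g flight against static flight was -0.09 when scaled to unnamed probes. The labels give no replicate numbers to pair arrays by, and the strains were paired by condition alone, through the condition term and the sign-flip test of the report.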
